A study of Mus musculus with 8 samples.

Results

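The 10 genes described here encode ligands and receptors of the platelet-derived growth factor (PDGF) and vascular endothelial growth factor (VEGF) families. They were taken by symbol from the 55573 genes of the deposited count files: the PDGF ligands Pdgfa, Pdgfc and Pdgfd, the PDGF receptors Pdgfra and Pdgfrb, the VEGF-family ligands Vegfa, Vegfb, Vegfc and Pgf, and the VEGF receptor Flt1. All 10 were found once each and all 10 passed the filter on low counts that left 15259 genes for testing. The RNA came from mouse colon fibroblasts of the C57BL6/J strain grown as flat cultures in Advanced DMEM F12 with 10% FBS. Both groups had been exposed to APTKA conditioned medium (the meaning of APTKA is not stated). Of the 8 libraries, 4 came from non-irradiated cells and 4 from cells that received 3 fractions of 2 Gy, each group with replicates I to IV and harvested 72 h from the first fraction. No separate animals or cultures are named for the samples, which the design text calls independent. P-values here thus measure only the spread between these samples, and that spread may be technical.

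PDGF and VEGF ligands are secreted dimers of one structural superfamily that signal through receptor tyrosine kinases. PDGF receptors are the classic growth factor receptors of mesenchymal cells: PDGF-A and PDGF-C act mainly through the receptor encoded by Pdgfra, and PDGF-D through that encoded by Pdgfrb. VEGF ligands act mainly on endothelial cells, and fibroblasts are known as a source of them: Vegfa binds the receptors Flt1 and Kdr, Vegfb and Pgf (placental growth factor) bind Flt1, and Vegfc binds Flt4, the receptor of lymphatic endothelium.

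RefSeq promoter windows on the GRCm38.p6 build, which shares its coordinates with the mm10 build of the files, were found for 9 of the 10 members. The 250 bases before the transcription start are shown for 4 of them: Vegfa, the most abundant ligand, and Pdgfd, Vegfb and Flt1, 3 of the 4 members with an unadjusted p under 0.05 in the comparison below. Capitals mark matches, on either strand, to the GC box GGGCGG, the hypoxia response element core ACGTG, the cyclic AMP response element TGACGTCA and the TATA box TATAAA, none of which overlapped another.
Vegfa, chr17:46032378-46032627, minus strand: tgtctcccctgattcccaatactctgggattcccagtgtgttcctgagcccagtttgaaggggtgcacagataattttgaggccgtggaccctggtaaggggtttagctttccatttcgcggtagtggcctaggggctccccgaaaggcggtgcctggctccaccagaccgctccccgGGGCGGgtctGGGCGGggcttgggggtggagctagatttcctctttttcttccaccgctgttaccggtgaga
Vegfb, chr19:6987652-6987901, minus strand: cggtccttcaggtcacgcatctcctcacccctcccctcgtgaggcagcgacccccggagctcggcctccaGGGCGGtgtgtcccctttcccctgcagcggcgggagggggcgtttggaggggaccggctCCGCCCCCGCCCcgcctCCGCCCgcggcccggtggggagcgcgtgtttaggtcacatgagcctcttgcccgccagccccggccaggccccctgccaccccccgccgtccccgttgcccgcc
Pdgfd, chr9:6168236-6168485, plus strand: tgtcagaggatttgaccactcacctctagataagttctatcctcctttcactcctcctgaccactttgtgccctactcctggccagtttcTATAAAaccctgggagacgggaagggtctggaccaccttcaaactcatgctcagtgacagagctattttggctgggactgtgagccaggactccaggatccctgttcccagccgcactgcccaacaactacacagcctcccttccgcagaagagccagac
Flt1, chr5:147726012-147726261, minus strand: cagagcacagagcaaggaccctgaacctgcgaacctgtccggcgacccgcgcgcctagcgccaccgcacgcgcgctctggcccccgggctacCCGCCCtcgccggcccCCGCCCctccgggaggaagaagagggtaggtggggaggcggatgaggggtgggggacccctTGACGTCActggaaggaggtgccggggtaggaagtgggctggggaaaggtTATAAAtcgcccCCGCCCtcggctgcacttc

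The Flt1 window held 3 GC boxes, 1 cyclic AMP response element starting 81 bases before the transcription start and 1 TATA box starting 31 bases before it. The Vegfa window held 2 GC boxes and the Vegfb window 4, whereas the Pdgfd window held none and 1 match to the TATA box letters, starting 160 bases before the transcription start. Among the 9 windows, 6 held a GC box, 2 a TATA box, 1 the cyclic AMP response element and 0 the hypoxia core. Of 32817 mouse windows of the same length, 32.7% held a GC box, 12.4% a TATA box, 1.55% the cyclic AMP response element and 16.6% the hypoxia core. The member windows with a GC box were 59.2% to 76.4% G and C, above the median of 52.4% over all windows. The half-site of p53, the transcription factor activated by DNA damage, matched in 0 of the 9 windows and in 7.12% of all windows. These matches describe letters in short windows and not binding, and sequence farther upstream was not searched.

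Total counts ran from 28731227 to 37157216 per library, and a member had between 143 (Pgf) and 35972 (Pdgfra) counts in a library. Libraries were compared before use, and no pair agreed within counting noise (chi-square per degree of freedom from 4.65 to 24.4). The irradiated libraries were closest as I with II (4.93) and III with IV (4.65), against 14.2 to 24.4 for the other irradiated pairs. Irradiated I and II stood apart in mitochondrial ribosomal RNA, at 15129 and 15263 CPM against 4178 to 5934 in the other 6 libraries. CPM are counts scaled to the library total, here without scaling factors. Without irradiated I and II 0 members were called, as with all 8 libraries. That smaller fit also called fewer genes in all (301 higher and 295 lower, against 395 and 634), so it cannot decide whether these libraries matter. The labelled cell type was checked with 11 fibroblast markers, all of which were detected. Their summed level was 17581 to 20307 CPM in non-irradiated and 15741 to 17555 CPM in irradiated libraries. Most of that sum came from the matrix genes Col3a1, Col1a2, Fn1 and Col1a1, whereas S100a4, Fap and Lum averaged 3.15, 3.49 and 5.63 CPM. The log2 fold change, irradiated over non-irradiated, was negative for 8 of the 11 markers and positive for 3. By the test described below, 0 were called higher and 2, Col1a2 and Vim, lower, beside 2.59% and 4.15% of all tested genes. Of 10 epithelial markers, 10 averaged under 1 CPM, and their summed level was at most 2.16 CPM. Of 10 macrophage and leukocyte markers 8 were under 1 CPM (summed level 13.1 to 16.1 CPM), and of 7 enteric glia and neuron markers 6 were (3.93 to 5.37 CPM).

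The question asked of these genes was whether fractionated irradiation changed their transcript levels in fibroblasts already exposed to conditioned medium. None of the 10 members passed the test: edgeR's quasi-likelihood test with Benjamini-Hochberg adjustment over all 15259 genes called 0 higher and 0 lower at an adjusted p under 0.05. Over all tested genes it called 2.59% higher and 4.15% lower, together 6.74%. At an unadjusted p under 0.05, 1 member (Vegfb) was above and 3 (Pdgfd, Flt1 and Pdgfrb) were below their non-irradiated level, 4 of 10, where 21.2% of all tested genes had such a p. DESeq2 and limma-voom also called 0 members. Without the low-count filter 1 member, Pdgfd, was called lower. It was called again without non-irradiated I and III, the non-irradiated libraries where it was lowest. The CPM of the groups overlapped for all 10 members, whereas they did not overlap for 14.2% of all tested genes. The median log2 fold change (irradiated over non-irradiated) was -0.05 over the members and 0.00 over all tested genes, and the median size of the change regardless of sign was 0.07 and 0.09. The 95% intervals of the 10 fold changes lay between 0.713-fold and 1.32-fold, so that none of them reached a change of 1.5-fold in either direction. Because each library is a bulk sample, fewer cells of a type and less RNA per cell cannot be told apart.

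**Figure D1:**
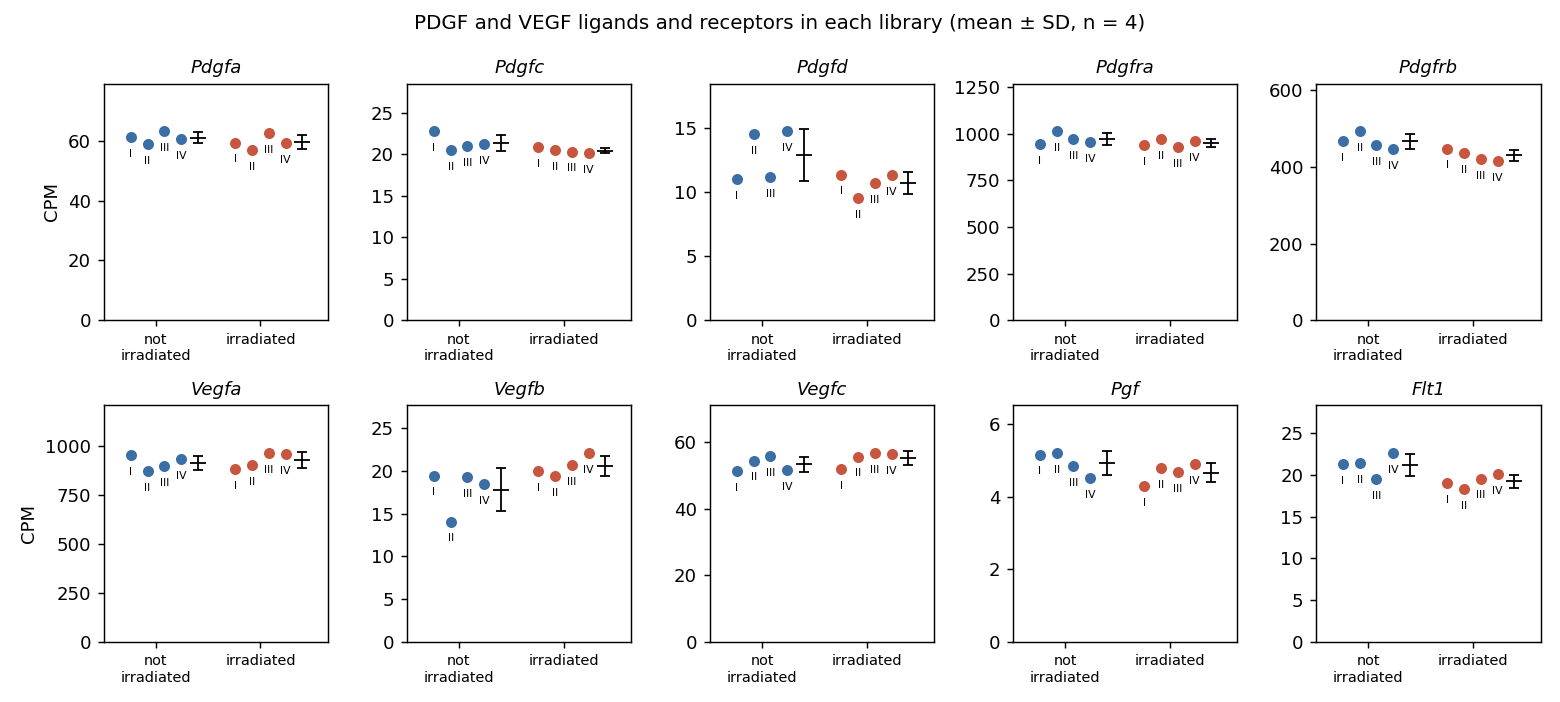
CPM of each member (one panel per gene, vertical axis from 0) in the 4 non-irradiated (blue) and 4 irradiated (red) libraries, numbered I to IV, with the mean and SD of each group to its right. The groups overlap in every panel, and the widest spread is that of Pdgfd and Vegfb in non-irradiated libraries.

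**Figure D2:**
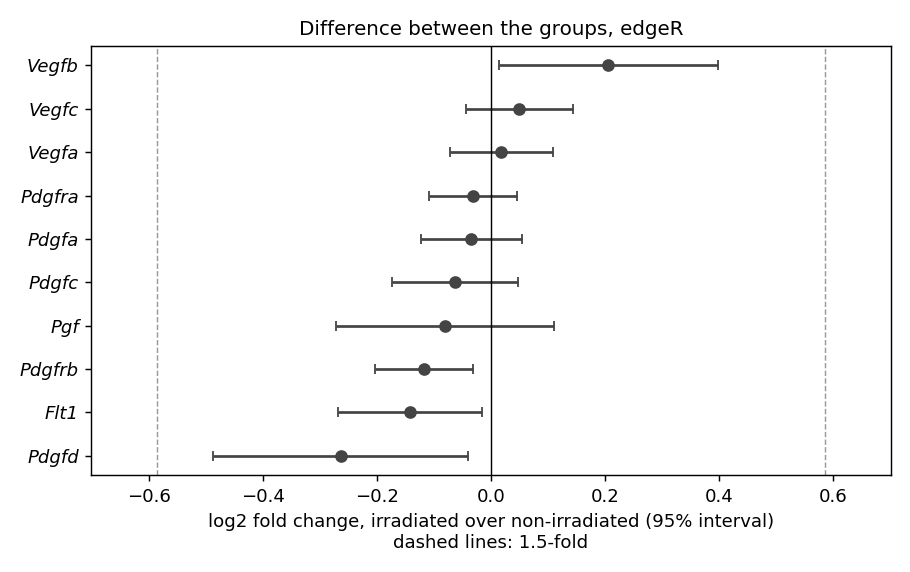
Log2 fold change of each member, irradiated over non-irradiated, with its 95% interval from the edgeR fit. Dashed lines mark 1.5-fold, which no interval reaches. The intervals of Vegfb, Pdgfrb, Flt1 and Pdgfd leave out 0, although none of these 4 genes had an adjusted p under 0.05.

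Levels of different genes can be compared only per length, here as CPM per kilobase of exon in the GENCODE M21 models. On that scale Vegfa led, at 214 ± 8.25 in non-irradiated and 216 ± 9.58 in irradiated libraries (SD, n = 4 each). The PDGF receptors followed, Pdgfra at 97.1 ± 3.14 without irradiation and between 92.9 and 101 over all 8 libraries, and Pdgfrb at 85.2 ± 3.72 and 78.6 ± 2.78. Vegfc (21.7 ± 0.900 and 22.5 ± 0.890) and Pdgfa (19.6 ± 0.573 and 19.1 ± 0.754) formed a middle tier, with Vegfb below them (11.1 ± 1.57 and 12.8 ± 0.736). At the low end stood Pdgfc (4.20 ± 0.197 and 4.02 ± 0.0601), Pdgfd (4.08 ± 0.652 and 3.40 ± 0.274), Pgf (1.70 ± 0.113 and 1.61 ± 0.0927) and Flt1 (1.57 ± 0.0968 and 1.43 ± 0.0576). Over the 8 libraries, 2 pairs of neighbours in this order overlapped and cannot be ranked beyond their spread: Pdgfc (3.95 to 4.48) with Pdgfd (3.01 to 4.68), and Pgf (1.48 to 1.80) with Flt1 (1.35 to 1.68). The exon length of Flt1, 13504 bases, is the union of all its annotated transcripts, short and long, so its value per kilobase depends on that choice, and its soluble and membrane forms were not separated.

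**Figure D3:**
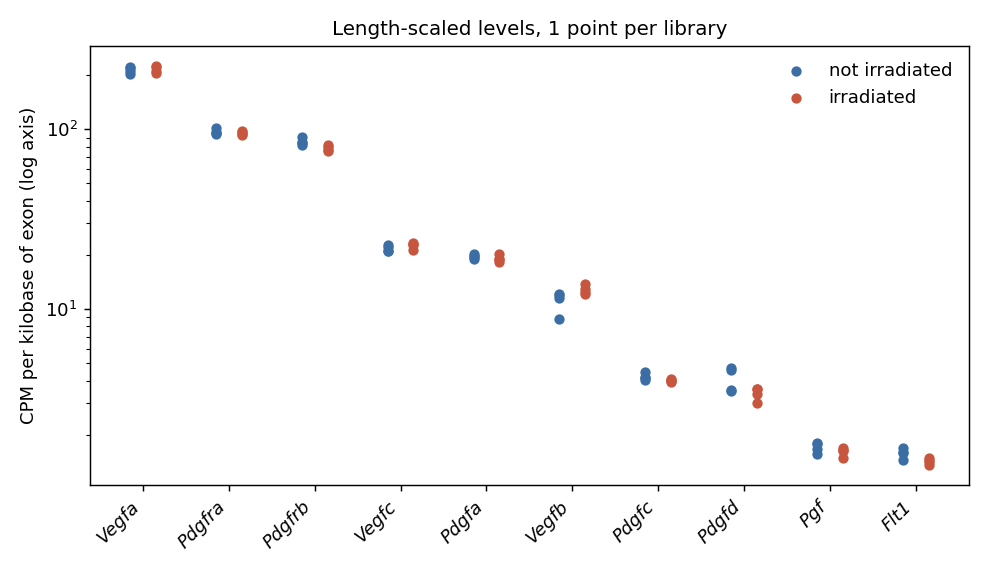
CPM per kilobase of exon on a log axis for the 10 members in falling order, 1 point per library, blue for non-irradiated and red for irradiated. Vegfa and the PDGF receptors stand above the other 7 members, and the points of Pdgfc and Pdgfd and of Pgf and Flt1 share the same range.

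The PDGF receptors were the most abundant receptors of the set. Pdgfra (ENSMUSG00000029231, chromosome 5, 75152292 to 75198215, mm10), a mesenchymal receptor that marks fibroblasts, stood at 944, 1017, 974 and 958 CPM in non-irradiated I to IV and at 939, 975, 931 and 964 CPM in irradiated I to IV. The ranges lay almost on top of each other, and the log2 fold change was -0.03 (SE 0.04, adjusted p = 0.674), with a 95% interval from -0.11 to 0.05. Pdgfrb (ENSMUSG00000024620), the receptor prominent in pericytes and activated fibroblasts, stood at 468, 494, 458 and 446 CPM without and 448, 437, 421 and 415 CPM with irradiation. Only irradiated I reached into the non-irradiated range, just above non-irradiated IV. Its log2 fold change of -0.12 (SE 0.04, 95% interval -0.20 to -0.03) had the smallest adjusted p of the members, 0.102, at an unadjusted p of 0.0112. Notch3, also a pericyte gene, rose from 80.1 ± 6.31 to 96.7 ± 5.04 CPM (SD, n = 4 each; log2 fold change 0.27, adjusted p = 0.0109), while Acta2, smooth muscle actin, fell from 362 ± 18.5 to 305 ± 33.4 CPM, a log2 change of -0.25 (adjusted p = 0.0402). Both were named after their values were seen, as the called genes of this marker list. That is 1 higher and 1 lower of 8 tested, beside 2.59% and 4.15% of all tested genes. The pericyte marker Rgs5 had 9 counts over all 8 libraries. Of the 10 pericyte and smooth muscle markers, 5 averaged under 1 CPM. The summed level of all 10 was 486 to 549 CPM in non-irradiated and 425 to 518 CPM in irradiated libraries, most of it Acta2 (334 CPM over all libraries). The log2 fold change was positive for 6 of the 8 tested markers and negative for 2, Acta2 and Cnn1. The part of these markers in the Pdgfrb values was not tested.

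The balance of both PDGF receptors needs no library scaling. Per kilobase of exon, Pdgfra exceeded Pdgfrb 1.10-, 1.12-, 1.16- and 1.17-fold in non-irradiated I to IV and 1.14-, 1.22-, 1.21- and 1.27-fold in irradiated I to IV. Irradiated I lay inside the non-irradiated range and the other 3 irradiated libraries above it. The mean ratio was 1.14 ± 0.0329 without and 1.21 ± 0.0513 with irradiation (SD, n = 4 each), a log2 difference of 0.09 that an exact two-sided permutation test did not separate from the spread (p = 0.0857, where 70 splits allow 0.0286 at the smallest).

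Across the libraries, the tested genes whose log2 CPM followed Pdgfrb most closely included Col1a2, a chain of type I collagen (Pearson r 0.96 over 8 libraries), and Nek6, a mitotic kinase (0.95). These correlations describe 8 libraries that share a culture protocol and a group difference. Col1a2 itself fell, from 5353 to 4539 CPM (adjusted p = 0.0101).

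Among the PDGF ligands, Pdgfa supplied most of the transcripts. Per kilobase of exon it made up 70.3% ± 1.93 of the 3 ligands in non-irradiated and 72.1% ± 0.840 in irradiated libraries (SD, n = 4), with Pdgfc at 15.1% ± 0.779 and 15.1% ± 0.592 and Pdgfd at 14.6% ± 2.30 and 12.8% ± 0.818. Pdgfa, whose product activates the receptor of Pdgfra, stood at 61.2, 59.1, 63.4 and 60.6 CPM without and 59.5, 57.0, 62.7 and 59.3 CPM with irradiation. The groups were interleaved (log2 fold change -0.03, SE 0.04, adjusted p = 0.691, 95% interval -0.12 to 0.05). The annotation places 813 exon bases of Pdgfa under the antisense gene 6330403L08Rik, which had 1864 counts in all against 15994 for Pdgfa. The strand setting of the counting is not given, so reads of this stretch cannot be assigned with certainty. Pdgfc, a ligand secreted in a latent form, stood at 22.8, 20.5, 21.0 and 21.2 CPM without and 20.8, 20.5, 20.3 and 20.1 CPM with irradiation. Non-irradiated I was the highest library, and the irradiated libraries spread over less than 1 CPM (log2 fold change -0.06, SE 0.05, adjusted p = 0.526).

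Pdgfd (ENSMUSG00000032006, chromosome 9, 6168584 to 6378850), a latent ligand of the receptor encoded by Pdgfrb, had the largest measured difference. Its promoter window held no GC box, but neither did those of Pdgfc and Pdgfra, with log2 fold changes of -0.06 and -0.03. A link between these matches and the differences was not tested. Pdgfd stood at 10.99, 14.5, 11.2 and 14.7 CPM in non-irradiated I to IV and at 11.3, 9.50, 10.7 and 11.3 CPM in irradiated I to IV. Non-irradiated II and IV were the high libraries, while non-irradiated I and III lay among the irradiated ones. Over all genes the same pairs were the closest: per degree of freedom, chi-square was 4.78 between non-irradiated II and IV, 7.73 between I and III, and 8.95 to 12.4 between the other non-irradiated pairs. The log2 fold change was -0.26 (SE 0.10, 95% interval -0.49 to -0.04, adjusted p = 0.158). Its size rested on which non-irradiated libraries were used. Without I and III the log2 fold change was -0.45, with an adjusted p of 0.00828. That omission kept only the high non-irradiated libraries, and the omission of II and IV was not run, so this call is no separate evidence of a fall. With each single library left out in turn, the log2 fold change ran from -0.33 to -0.19, with an adjusted p from 0.0861 to 0.330.

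Vegfa, the main driver of blood vessel growth (ENSMUSG00000023951, chromosome 17, 46016993 to 46032369), was transcribed at a high level in both groups. It stood at 952, 873, 899 and 935 CPM without and 882, 902, 966 and 957 CPM with irradiation. Irradiated III and IV were the highest libraries and non-irradiated II and irradiated I the lowest, so the groups were interleaved (log2 fold change 0.02, SE 0.04, adjusted p = 0.854, 95% interval -0.07 to 0.11). Its sign turned without non-irradiated II or without irradiated III, where the log2 fold change was 0.00. Of the 4 VEGF-family ligands among the members, Vegfa made up 86.1% ± 0.597 per kilobase of exon without and 85.4% ± 0.190 with irradiation (SD, n = 4). Vegfc, the lymphatic ligand, followed with 8.78% ± 0.627 and 8.90% ± 0.198. In CPM, Vegfc stood at 51.4, 54.4, 55.8 and 51.5 without and 52.0, 55.6, 56.8 and 56.3 with irradiation, with the ranges overlapping (log2 fold change 0.05, SE 0.04, adjusted p = 0.561).

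Vegfb and Pgf, the ligands that bind Flt1 alone among the VEGF receptor kinases, were minor species. Vegfb (ENSMUSG00000024962, chromosome 19, 6982473 to 6987651), with 4 GC boxes in the window above, stood at 19.5, 14.1, 19.2 and 18.4 CPM without and 19.9, 19.4, 20.7 and 22.1 CPM with irradiation. Non-irradiated II was low, and the highest non-irradiated library lay just above the lowest irradiated one. The log2 fold change was 0.21 (SE 0.09, 95% interval 0.01 to 0.40, adjusted p = 0.203). Without non-irradiated II it was 0.11, with an adjusted p of 0.331. Pgf had the fewest counts of the members and stood at 5.16, 5.21, 4.85 and 4.51 CPM without and 4.29, 4.78, 4.68 and 4.91 CPM with irradiation. The ranges overlapped (log2 fold change -0.08, SE 0.09, at an adjusted p of 0.659). The 95% interval of Pgf, from -0.27 to 0.11, was wider than that of Vegfa. Pgf made up 0.686% ± 0.0588 of the 4 member ligands per kilobase without and 0.635% ± 0.0267 with irradiation (SD, n = 4). Vegfd, a further ligand of the family that these shares leave out, stood at 4.07 and 3.14 CPM per kilobase.

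Flt1 (ENSMUSG00000029648, chromosome 5, 147561604 to 147726011), a high-affinity VEGF receptor usually described in endothelium, was present at a low level. It stood at 21.3, 21.5, 19.5 and 22.7 CPM without and 19.0, 18.3, 19.6 and 20.1 CPM with irradiation. Non-irradiated III lay among the irradiated libraries and the other 3 above them (log2 fold change -0.14, SE 0.06, 95% interval -0.27 to -0.02, adjusted p = 0.180). Without irradiated I and II the log2 fold change was -0.10 and the adjusted p 0.569. Over all 8 libraries, the endothelial genes Tie1 and Cldn5 had 0 counts, Emcn 1, Erg 3, Cdh5 6 and Vwf 52, against 5341 for Flt1. Other genes of the same marker list were detected at a low level, Pecam1 with 181 counts, Tek with 180, Plvap with 183 and Esam with 304. A count of 0 allows up to 3 counts in a library, for counting error only. Of 12 endothelial markers 9 averaged under 1 CPM, and their summed level was 13.3 to 14.9 CPM in non-irradiated and 13.1 to 15.3 CPM in irradiated libraries, most of it Egfl7 (7.28 CPM over all libraries) and the VEGF receptor Kdr (3.19 CPM).

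**Figure D4:**
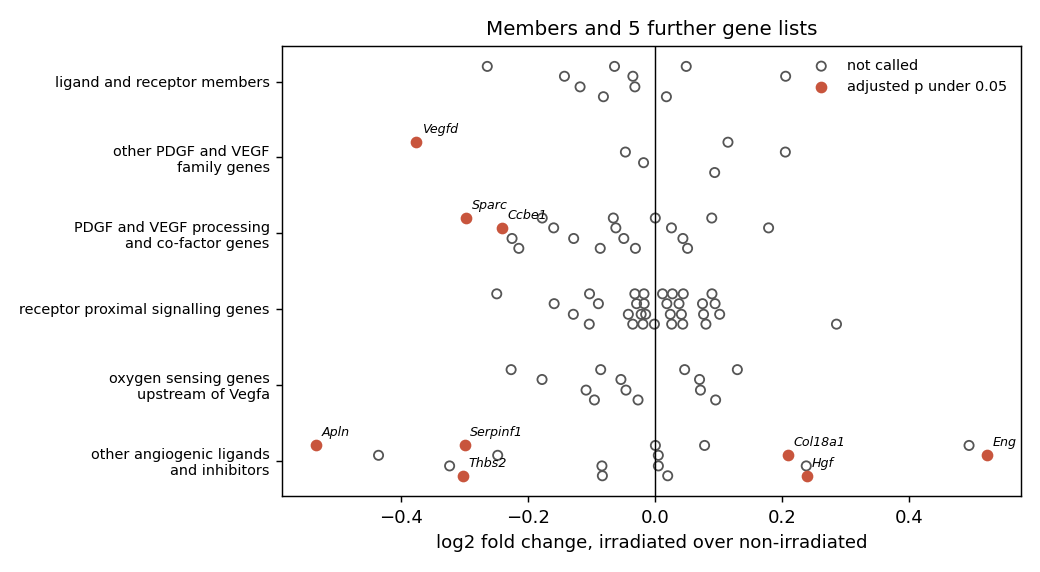
Log2 fold change (irradiated over non-irradiated) of the tested genes in 6 rows: the 10 members and 5 further lists. Open circles did not pass the test, and filled red circles had an adjusted p under 0.05 and carry their symbol. The rows of the members, the signalling genes and the oxygen sensing genes hold no filled circle.

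Of 7 other genes of both families, 6 were tested, and 1 was lower and 0 higher, beside 4.15% and 2.59% of all tested genes, and their median log2 change was 0.04. The lower one was Vegfd, a ligand of Flt4 and close relative of Vegfc, which stood at 10.7, 9.41, 9.39 and 9.71 CPM without and 7.72, 7.66, 6.66 and 8.17 CPM with irradiation. Every irradiated library lay below every non-irradiated one (log2 change -0.38, with SE 0.08 and an adjusted p of 0.0125). The call was lost without irradiated I and II (-0.41, adjusted p = 0.0578) and without non-irradiated I and III (-0.34, adjusted p = 0.0509). Pdgfb was not tested, with 49 counts over all libraries. The co-receptors of the VEGF family were more abundant than its kinase receptors in CPM, which is not scaled to length: Nrp2 stood at 393 ± 20.2 and 388 ± 13.9 CPM (log2 change -0.02 at an adjusted p of 0.861) and Nrp1 at 76.0 ± 6.16 and 81.1 ± 3.27 CPM (0.09, adjusted p = 0.360). Per kilobase of exon, Nrp2 stood at 33.2 ± 1.70 and Nrp1 at 7.76 ± 0.630 in non-irradiated libraries, against 1.57 ± 0.0968 for Flt1, 0.328 ± 0.0269 for Kdr and 0.150 ± 0.0196 for Flt4 (SD, n = 4). Kdr (log2 change 0.21 at an adjusted p of 0.406) and Flt4 (0.12, adjusted p = 0.759) were not called.

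Genes that process or bind these ligands included 2 that fell and 0 that rose among 18 tested of 19, where 4.15% of all tested genes fell and 2.59% rose, and their median log2 change was -0.06. Sparc, a matrix protein that can bind PDGF, fell from 715 ± 9.23 to 582 ± 28.0 CPM (SD, n = 4; log2 change -0.30, with SE 0.04 and an adjusted p of 0.000357). Ccbe1, which promotes the cleavage of Vegfc by Adamts3, fell from 92.1 ± 6.42 to 77.9 ± 3.21 CPM (log2 change -0.24, with SE 0.05 and an adjusted p of 0.0127). Without any 1 library both calls were kept. Lrp1, a co-receptor of the product of Pdgfrb and the most abundant gene of the list in CPM, was at 1939 ± 49.9 and 1858 ± 61.1 CPM (log2 change -0.06 at an adjusted p of 0.378). Not called either were the plasminogen activators that release active ligand, Plat for PDGF-C (54.0 ± 2.77 and 49.4 ± 0.890 CPM, adjusted p = 0.0950) and Plau for PDGF-D (173 ± 14.3 and 153 ± 13.5 CPM, adjusted p = 0.139), both chosen after their values were seen. DESeq2 called 4 genes of the list lower, and without a low-count filter 6 were lower and 1 was higher. Without non-irradiated II 4 were lower and 1 was higher, and without non-irradiated I and III 5 were lower.

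No signalling or oxygen sensing gene passed the test. Of 32 genes that act directly below the receptors, 0 were higher and 0 lower by edgeR's test, with 1 above and 3 below at an unadjusted p under 0.05 (21.2% of all tested genes in either direction) and a median log2 fold change of 0.01. The smallest adjusted p was that of Plcg1, a phospholipase that docks on activated receptors (134 ± 3.45 and 125 ± 1.89 CPM, SD, n = 4; log2 fold change -0.10, adjusted p = 0.105). Cbl, the ubiquitin ligase that sends receptors to degradation, was at 58.0 and 48.8 CPM (-0.25, adjusted p = 0.177), and passed without irradiated II (-0.35, adjusted p = 0.0443). Stat3, the most abundant of the list in CPM, had a log2 fold change of -0.03 (adjusted p = 0.696). Of 14 genes listed for oxygen sensing, coactivators included, 13 were tested, and 0 were higher and 0 lower, with a median of -0.05. Below at an unadjusted p under 0.05 were 4 (Hif1a, Egln3, Crebbp and Sp1), beside 11.7% of all tested genes. DESeq2 and limma-voom left the counts of both lists at 0. Hif1a, the oxygen-regulated activator of Vegfa, was at 970.1 ± 51.0 and 908 ± 15.9 CPM (log2 change -0.09 at an adjusted p of 0.195), and Egln3, a prolyl hydroxylase and known target of that activator, at 53.9 ± 1.38 and 50.1 ± 1.77 CPM (-0.11, adjusted p = 0.130). Crebbp, a coactivator, had a log2 fold change of -0.18 (adjusted p = 0.129).

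Other angiogenic ligands and inhibitors moved in both directions. Of 21 listed, 18 were tested, and 3 were higher and 3 lower, 6 of 18 where 6.74% of all tested genes were called. Their median log2 change was 0.00. The list was chosen with earlier results of these data known, so this count describes it and is no test of it. Serpinf1, an inhibitor of vessel growth also called PEDF, fell from 311 ± 10.6 to 253 ± 7.01 CPM (SD, n = 4; log2 change -0.30, with SE 0.04 and an adjusted p of 0.000213). Apln, the angiogenic peptide apelin, stood at 3.49, 3.43, 3.52 and 3.81 CPM without and 2.35, 2.54, 2.37 and 2.60 CPM with irradiation, with no overlap (log2 change -0.53, with SE 0.10 and an adjusted p of 0.00583). The other 4 called genes were named after their values were seen. Hgf, hepatocyte growth factor, rose from 244 ± 14.7 to 288 ± 14.6 CPM (log2 change 0.24 at an adjusted p of 0.00823). Col18a1, the source of endostatin, rose with 0.21 (adjusted p = 0.0155). Eng, a TGF-beta co-receptor at a low level, rose from 3.46 ± 0.610 to 4.94 ± 0.295 CPM (0.52, adjusted p = 0.0188). The inhibitor Thbs2 fell with -0.30 (adjusted p = 0.0401). Angptl2, the most abundant of the list in CPM, had a log2 fold change of 0.01 (adjusted p = 0.966). Without irradiated I and II, 0 genes of this list were higher and 1 was lower, and the call of Apln was lost (adjusted p = 0.0631). Single libraries also ended calls: Col18a1 without non-irradiated IV (adjusted p = 0.0522), irradiated I (0.0561) or irradiated IV (0.0565), Eng without non-irradiated IV (0.0571) or irradiated I (0.0614), and Thbs2 without non-irradiated I, II or III or irradiated I, II or III (0.0689 to 0.110).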

How the data were processed

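Whole-number read counts for each Ensembl gene were deposited by the authors, unnormalized, as a separate file for every library. The submitters' processing notes list STAR 2.5.2a, featureCounts 1.5.0-p1, bcl2fastq 2.20.0.422 and the build mm10. Which annotation was counted, whether strand was used and how multi-mapped reads were treated is not given in the sources used here. Per the labels, the RNA was polyA RNA from a Qiagen kit. GENCODE M21 (GRCm38) supplied gene symbols, coordinates and exon lengths. Of 55573 identifiers it matched 55480, and the remaining 93 held 0.000431% of the counts. Library totals ran from 28731227 to 37157216.

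The test was edgeR's (4.0.16, R 4.3.3) quasi-likelihood test between the groups, fitted over all 8 libraries without covariates. It used TMM factors and filterByExpr (minimum count 10, minimum total 15), with Benjamini-Hochberg adjustment over every gene tested. SEs come from the fold change divided by the root of F, and 95% intervals from these SEs and the degrees of freedom of the test. CPM include the TMM factors unless stated. Tried beside it were RLE or upper-quartile factors, DESeq2 1.42.0, limma-voom (limma 3.58.1), omitting the filter, requiring 1 CPM in 4 libraries, a threshold of 0.01, blocking on the replicate numeral, and omitting libraries singly or in pairs. For the further lists these were added after seeing the data. The code was tested on simulated counts. Named were, for each of 5 further lists, the 2 genes of smallest adjusted p and the gene of highest mean CPM, and the 3 genes best correlated with the member of smallest adjusted p among those at 10 CPM or more. One gene that this rule takes is not reported here. Members and lists were chosen with earlier results of these data known.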

Additional observations from a re-analysis of the deposited data

Results flagged for a closer look

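In 3 of 52 groups of 4 libraries tested over the members, the named genes and the receptor ratio, 1 library stood far from the other 3 by Dixon's criterion, which chance alone meets in about 1 group of 20. None of the 3 concerned a member. Cbl was at 68.4 CPM in non-irradiated I, against 53.9 to 55.4 CPM in the other non-irradiated libraries. Crebbp was at 135 CPM in non-irradiated I, against 115 to 116 CPM in the others. Ccbe1 was at 82.7 CPM in irradiated II, against 76.3 to 76.4 CPM in the other irradiated libraries.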

How the results depend on the processing

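Over 17 alternative fits for each of the 10 members, 165 values kept their direction and their side of the threshold, 3 newly passed it and 2 changed sign. The count of higher members was 0 in every alternative. The count of lower members was 0 except for 1 without the low-count filter (Pdgfd, log2 fold change -0.26, adjusted p = 0.0302), 1 with the replicate block (Pdgfrb, -0.12, 0.0470) and 1 without non-irradiated I and III (Pdgfd, -0.45, 0.00828). The cause was not tested. The labels do not say whether libraries with the same numeral share anything else. Their deviations from the group means correlated over genes with r from -0.03 (II) and 0.02 (I) to 0.15 (IV) and 0.27 (III), and not every library correlated best with its own numeral. The block raised the calls over all genes from 395 to 550 higher and from 634 to 802 lower. Higher calls over all genes numbered 648 without the filter, and 257, 234 and 221 when non-irradiated I, irradiated III or irradiated IV was omitted. Lower calls numbered 415 without irradiated IV and 295 without irradiated I and II. With 1 library left out, log2 fold changes ran from -0.0024 to 0.0420 for Vegfa, from -0.0429 to 0.00588 for Nrp2 and from -0.0302 to 0.0429 for Angptl2. Without non-irradiated I and III, Nrp2 turned to 0.0470 and Stat3 to 0.0131, while Hif1a passed (-0.15, 0.0215). Without the filter Cbl (0.000256) and Crebbp (0.00844) passed, and 1 signalling and 2 oxygen sensing genes were lower. The block ended the call of Thbs2 (0.0701). The receptor ratio kept its direction throughout (log2 difference 0.06 to 0.12), and fits with 3 against 4 libraries cannot give a p below 0.0571. Pgf, with 143 to 179 counts per library, had the least depth.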
